A study of Arabidopsis thaliana with 6 samples.

Results

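The transcription regulators of anthocyanin synthesis were followed in seedlings of Arabidopsis thaliana. The group was chosen by gene identifier as 9 genes, each with 1 entry among the 32594 loci of the deposited expression table, and no entry merged a member with another gene. The members are the activator MYB genes PAP1 (AT1G56650), MYB90 (AT1G66390, also called PAP2), MYB113 (AT1G66370) and MYB114 (AT1G66380), the bHLH genes TT8 (AT4G09820), GL3 (AT5G41315) and EGL3 (AT1G63650), the WD40 repeat gene TTG1 (AT5G24520), and the small R3-type MYB repressor gene MYBL2 (AT1G71030).

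Anthocyanins are red to purple flavonoid pigments that accumulate in the vacuole. In Arabidopsis the late steps of their synthesis are switched on by the MBW complex, in which an R2R3-type MYB protein and a bHLH protein sit on a promoter together with TTG1. The MYB partner largely decides which genes the complex acts on, and the same bHLH and WD40 proteins serve trichome, root hair and seed coat programmes with other MYB partners. MYBL2 binds the bHLH proteins and represses the same target genes.

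Total RNA depleted of ribosomal RNA was sequenced from 14-day-old, untreated whole seedlings grown on MS plates, with 2 libraries for each of 3 genotypes. Col-0 was the wild type. Plants labelled apc8-1 are mutant in APC8, which encodes part of the anaphase promoting complex/cyclosome, a ubiquitin ligase of the cell cycle, and plants labelled nrpe1-12 are mutant in NRPE1, which encodes the catalytic subunit of the RNA polymerase V that acts in RNA-directed DNA methylation. Neither the lesion of these alleles nor whether duplicates came from separate cultures is stated, so the p-values reflect the spread between these samples and that spread may be technical.

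Levels are in FPKM, a fragment count divided by transcript length and by library depth, so they can be compared between genes. A level of 1 FPKM or more was seen for 16828 to 17301 loci per library. The table gives no fragment totals, and the steps between low values put 1 FPKM at an estimated 14.1 to 19.2 fragments per kilobase. APC8 was called in neither mutant (adjusted p = 0.306 in apc8-1 and 0.937 in nrpe1-12, limma), and NRPE1 was higher in the nrpe1-12 libraries (log2 fold change 0.92, adjusted p = 9.77e-04). With the lesions unknown, these transcripts do not check the labels. The seedling label was checked against leaf and root markers, and the most abundant markers of both organs were present in all 6 libraries.

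Changes are differences of log2(FPKM + 1), which understate the change of genes with low levels. A change was called at a Benjamini-Hochberg adjusted p below 0.05 in a limma fit of the loci that reached 1 FPKM in 2 or more libraries. Of the 9 regulators, 7 passed this filter, and MYB113 and GL3 did not. MYB114 passed it through its Col-0 libraries, so a lower level in the mutants was built into its being tested.

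In apc8-1 against Col-0, 5 regulators were lower and none was higher. They were MYB90, PAP1, MYB114, TT8 and MYBL2. Of all 17802 tested loci, 30.2% were called in this comparison, 16.1% as lower and 14.1% as higher. In nrpe1-12 against Col-0, MYB90 and MYBL2 were lower, where 26.3% of all tested loci were called, 12.8% as lower. In apc8-1 against nrpe1-12, MYB90, PAP1 and TT8 were lower in apc8-1, where 18.7% of all tested loci were called, 11.4% as lower and 7.26% as higher. Both comparisons with Col-0 share the same 2 control libraries, so their values are given side by side and are not independent of each other.

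**Figure D1:**
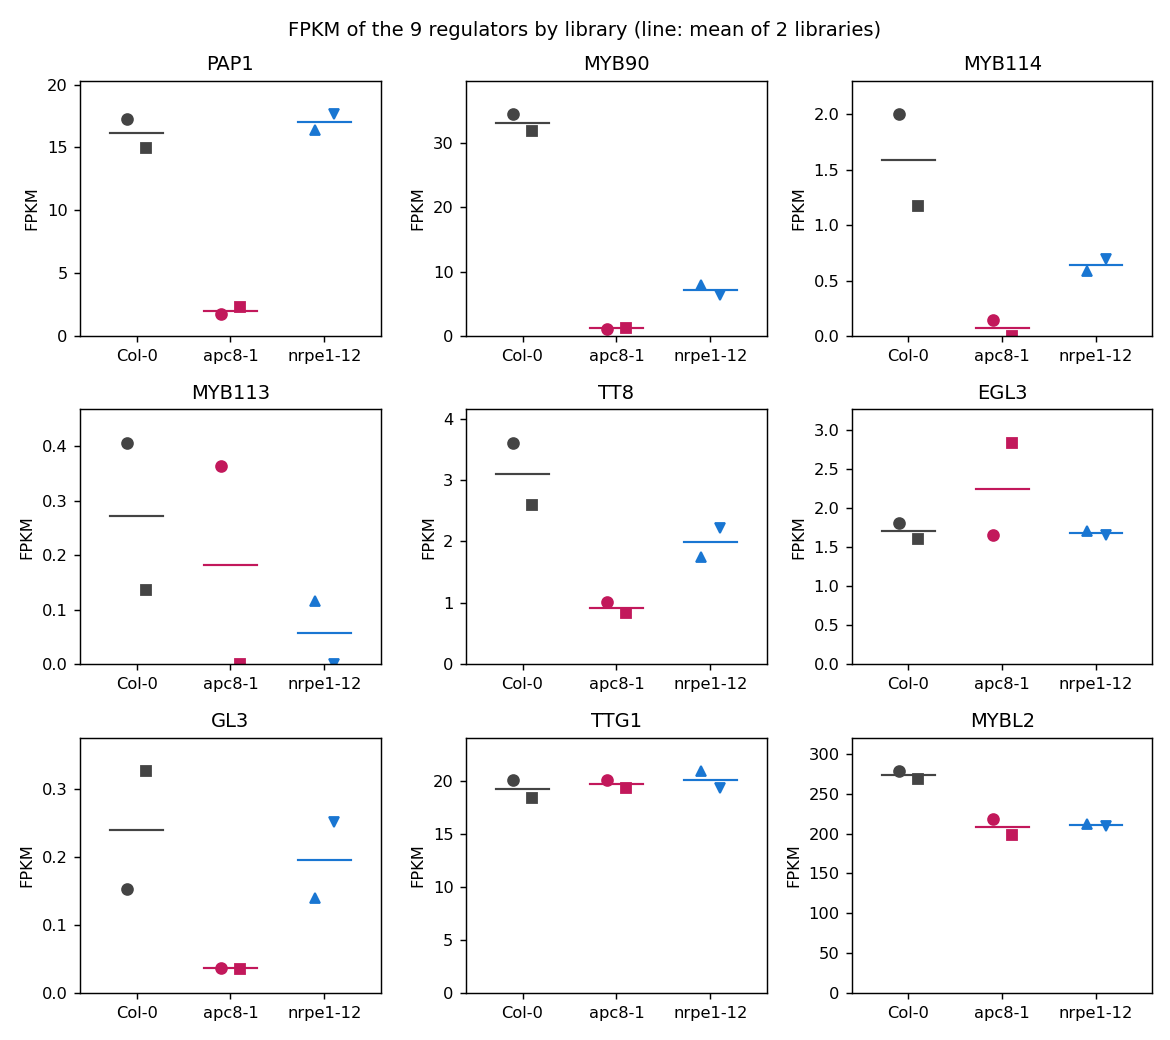
Each panel shows FPKM (vertical axis, linear, from 0) of 1 regulator in the 6 libraries, by genotype, with 1 point per library and a line at the mean of 2. MYB90 and PAP1 lie far apart between Col-0 and apc8-1, while PAP1 in nrpe1-12 (16.4 and 17.6) overlaps with Col-0 (17.3 and 14.96).

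MYB90 had the highest level of the 4 activator MYB genes in the wild type. It lies on chromosome 1 at 24763957 to 24765541 (TAIR10, plus strand), and its protein promotes anthocyanin accumulation when overproduced. Col-0 replicates 1 and 2 had 34.5 and 31.8 FPKM, apc8-1 replicates 1 and 2 had 1.04 and 1.29 FPKM, and nrpe1-12 libraries a and b had 7.91 and 6.33 FPKM. The genotypes did not overlap, and nrpe1-12 lay between the other groups. In apc8-1 the mean was 28.4-fold lower than in Col-0 (log2 fold change -3.98, SE 0.13, adjusted p = 1.30e-06), with the 18th smallest p-value of all tested loci. In nrpe1-12 it was 4.65-fold lower (log2 fold change -2.08, SE 0.13, adjusted p = 3.33e-05). Between the mutants, apc8-1 was 6.10-fold below nrpe1-12 (log2 fold change -1.90, SE 0.13, adjusted p = 6.51e-05). These 3 calls held in every alternative run.

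PAP1, also called MYB75, is the activator whose overproduction turns whole plants purple. It lies on chromosome 1 at 21233595 to 21235145 (minus strand). Its level was 17.3 and 14.96 FPKM in Col-0, 1.72 and 2.32 FPKM in apc8-1, and 16.4 and 17.6 FPKM in nrpe1-12. The apc8-1 libraries stood below all others, and the nrpe1-12 and Col-0 libraries overlapped. The mean in apc8-1 was 8.42-fold below nrpe1-12 (log2 fold change -2.58, SE 0.13, adjusted p = 1.60e-05), a difference that does not involve the Col-0 libraries, and 7.98-fold below Col-0. In nrpe1-12 against Col-0 the log2 fold change was 0.07 with a 95% confidence interval of -0.22 to 0.37 (adjusted p = 0.713), and its sign turned with organelle transcripts left out (-0.04) and without Col-0 replicate 2 (-0.02).

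MYB90 and PAP1 therefore exchanged their order between the wild type and both mutants. The ratio of MYB90 to PAP1, both in FPKM, was 1.99 and 2.12 for the wild type, 0.606 and 0.557 for apc8-1, and 0.483 and 0.359 for nrpe1-12. MYB90 was the more abundant transcript in both Col-0 libraries, and PAP1 in all 4 mutant libraries, with no overlap between any 2 genotypes. An exact two-sided permutation test of 2 libraries against 2 gave p = 0.333 for each mutant against Col-0, the smallest value this design allows. Summed over the 4 activator MYB genes, the level was 54.1 and 48.1 FPKM in Col-0, 3.27 and 3.62 FPKM in apc8-1, and 25.0 and 24.7 FPKM in nrpe1-12. PAP1 and MYB90 made up most of the sum in every library, as the plot of stacked activator levels shows.

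**Figure D2:**
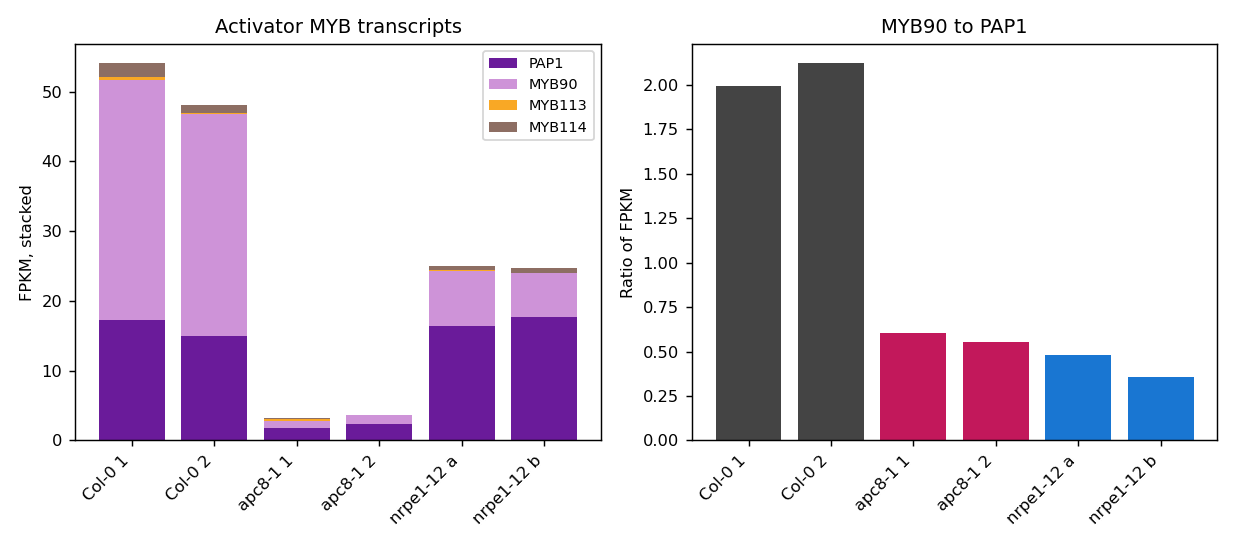
Left, FPKM of the 4 activator MYB genes stacked by library (linear axis from 0). Right, the ratio of MYB90 to PAP1 in the same libraries, which was 1.99 and 2.12 in Col-0 and between 0.359 and 0.606 in the mutant libraries.

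MYB114 and MYB113 lie beside MYB90 on the plus strand of chromosome 1, in the order MYB113 (24753634 to 24754604), MYB114 (24757413 to 24758805) and MYB90. The gaps between neighbours are 2808 and 5151 bases, and no other locus of the table lies within the span of these 3 genes. In the Col-0 accession MYB114 is known to encode a shortened protein, and MYB113 can drive pigment synthesis when overproduced. MYB114 had 2.00 and 1.18 FPKM in Col-0, 0.149 and 0 FPKM in apc8-1, and 0.587 and 0.692 FPKM in nrpe1-12. Those levels correspond to an estimated 7.7 and 3.4, 0.5 and 0, and 2.0 and 1.9 fragments. On these few fragments MYB114 followed the order of MYB90, highest in Col-0 and lowest in apc8-1, with no overlap. In apc8-1 against Col-0 its log2 fold change was -1.25 (SE 0.21, adjusted p = 0.00273), a call that held wherever the gene was tested, but without either Col-0 library it no longer passed the filter. In nrpe1-12 it was -0.64 with a 95% confidence interval of -1.12 to -0.17 (adjusted p = 0.0539), which did not pass the test. It did pass with organelle transcripts left out (adjusted p = 0.0344) and in the fit without an intensity trend (adjusted p = 0.0391). In apc8-1 against nrpe1-12 it was -0.61 (adjusted p = 0.0787), past the threshold with a pseudocount of 0.1 (-2.23, adjusted p = 0.0346).

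MYB113 stayed under 1 FPKM in every library and was not tested. It had 0.406 and 0.136 FPKM in Col-0, 0.363 and 0 FPKM in apc8-1, and 0.115 and 0 FPKM in nrpe1-12. Those values correspond to an estimated 4 and 1, 3 and 0, and 1 and 0 fragments, and a difference was not detectable at this depth (adjusted p = 0.982 for apc8-1 and 0.637 for nrpe1-12 against Col-0, limma with no filter). The 4 activator MYB genes are close paralogs, so how the authors' counting split shared fragments between them is uncertain. No source used here states the strand of counting.

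Of the bHLH partners, TT8 was lower in apc8-1. TT8 works in anthocyanin synthesis of seedlings and in tannin synthesis of the seed coat, and the MBW complex is known to act on the TT8 promoter itself. It lies on chromosome 4 at 6182023 to 6186493 (plus strand) and had 3.61 and 2.59 FPKM in Col-0, 1.01 and 0.837 FPKM in apc8-1, and 1.74 and 2.23 FPKM in nrpe1-12. The order of the genotypes was that of MYB90 and MYB114, without overlap. In apc8-1 the mean was 3.35-fold lower than in Col-0 (log2 fold change -1.08, SE 0.17, adjusted p = 0.00254). In nrpe1-12 the log2 fold change was -0.45 with a 95% confidence interval of -0.86 to -0.05 (adjusted p = 0.0966), past the threshold with organelle transcripts left out (adjusted p = 0.0498). Between apc8-1 and nrpe1-12 it was -0.63 (SE 0.17, adjusted p = 0.0409). This last call was lost without any 1 of the 4 mutant libraries (adjusted p from 0.0714 to 0.197), with quantile normalization (0.0729) and with no filter (0.187).

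EGL3 and GL3 are bHLH partners that overlap with TT8 in anthocyanin synthesis and also act in trichome formation. EGL3 (chromosome 1, 23599413 to 23602902, plus strand) had 1.82 and 1.61 FPKM in Col-0, 1.66 and 2.84 FPKM in apc8-1, and 1.71 and 1.66 FPKM in nrpe1-12. All genotypes overlapped, and apc8-1 replicate 2 was the highest library. The log2 fold change was 0.24 in apc8-1 (95% confidence interval -0.20 to 0.68, adjusted p = 0.395), which became -0.03 without apc8-1 replicate 2. In nrpe1-12 it was -0.01 (95% confidence interval -0.45 to 0.43, adjusted p = 0.969), with a sign that turned under quantile normalization. GL3 (chromosome 5, 16529455 to 16532879, plus strand) had 0.153 and 0.326 FPKM in Col-0, 0.0368 and 0.0359 FPKM in apc8-1, and 0.140 and 0.252 FPKM in nrpe1-12. Both apc8-1 libraries held an estimated 1 fragment, against 5 and 8 in Col-0, and the gene was not tested (adjusted p = 0.214 for apc8-1 against Col-0 with no filter).

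Within the bHLH genes the shares shifted. EGL3 made up 32.6 and 35.5% of the summed FPKM of TT8, GL3 and EGL3 in the wild type, 61.3 and 76.5% for apc8-1, and 47.6 and 40.1% for nrpe1-12. TT8 was the most abundant of the 3 in Col-0, and EGL3 in both apc8-1 libraries. The sum itself was 5.57 and 4.53 FPKM in Col-0, 2.71 and 3.71 FPKM in apc8-1, and 3.59 and 4.14 FPKM in nrpe1-12, where the mutants overlapped each other.

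TTG1, the WD40 scaffold of the complex (chromosome 5, 8370587 to 8372847, minus strand), passed the test in no comparison. It had 20.1 and 18.5 FPKM in Col-0, 20.1 and 19.4 FPKM in apc8-1, and 21.0 and 19.4 FPKM in nrpe1-12, and all genotypes overlapped. The log2 fold change was 0.03 in apc8-1 (95% confidence interval -0.15 to 0.22, adjusted p = 0.789) and 0.06 in nrpe1-12 (95% confidence interval -0.12 to 0.25, adjusted p = 0.624), with signs that turned when organelle transcripts were left out. The related WD40 genes LWD1 and LWD2, which act in the circadian clock, were called in no comparison either. Their log2 fold changes against Col-0 were 0.11 and 0.01 in apc8-1 and 0.06 and 0.05 in nrpe1-12.

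MYBL2, the repressor, was by far the most abundant transcript of the 9 and was moderately lower in both mutants. It lies on chromosome 1 at 26795123 to 26796364 (minus strand) and had 278 and 268 FPKM in Col-0, 218 and 198 FPKM in apc8-1, and 213 and 209 FPKM in nrpe1-12. Both mutants lay below Col-0 without overlap and overlapped each other. In apc8-1 its log2(FPKM + 1) changed by -0.40 (SE 0.06, adjusted p = 0.00245), in nrpe1-12 by -0.37 (SE 0.06, adjusted p = 0.00371), and both calls held in every alternative run. Between the mutants the log2 fold change was -0.02 (95% confidence interval -0.17 to 0.12, adjusted p = 0.853), with a sign that turned when organelle transcripts were left out.

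Relative to the activators the repressor gained in both mutants. The ratio of MYBL2 to the summed activator MYB genes, in FPKM, was 5.14 and 5.58 for the wild type, 66.7 and 54.7 for apc8-1, and 8.51 and 8.48 for nrpe1-12. The 3 genotypes did not overlap, and the exact two-sided permutation p was 0.333 for each pair, the smallest this design allows. These ratios compare transcripts and say nothing of protein.

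**Figure D3:**
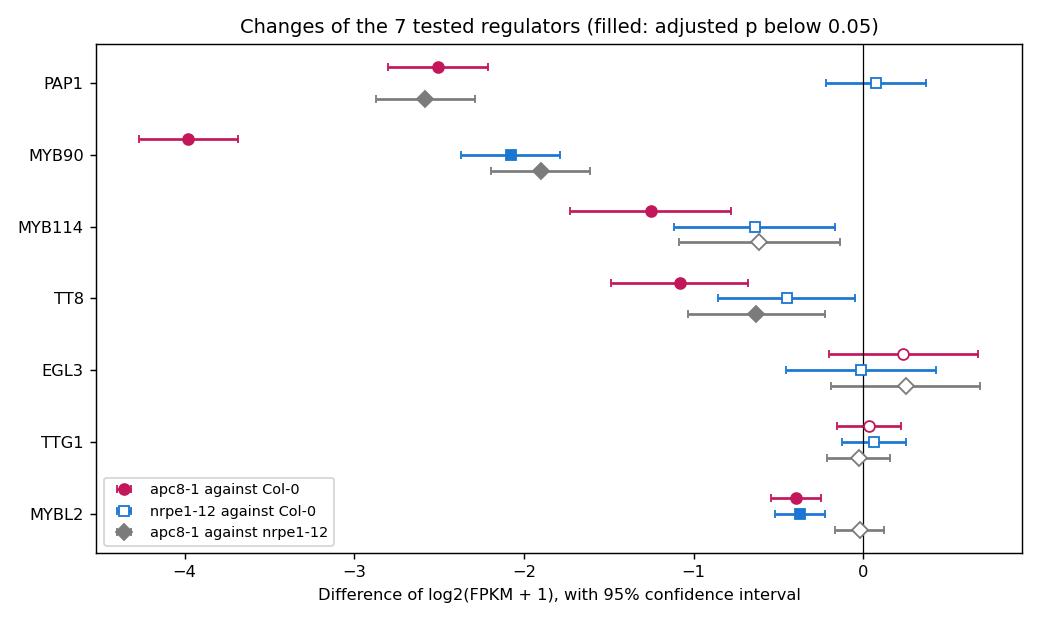
Log2 fold changes of the 7 tested regulators with 95% confidence intervals (horizontal axis, difference of log2(FPKM + 1)) in apc8-1 against Col-0 (circles), nrpe1-12 against Col-0 (squares) and apc8-1 against nrpe1-12 (diamonds), with filled symbols at an adjusted p below 0.05. The 3 intervals of TTG1 and of EGL3 include 0, and MYB90 lies at -3.98, -2.08 and -1.90.

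The order of the members by level differed between genotypes. In Col-0 it ran MYBL2, MYB90, TTG1, PAP1, TT8, then EGL3 and MYB114, whose libraries overlapped, then MYB113 and GL3, which overlapped too. In nrpe1-12 TTG1 and PAP1 stood above MYB90. In apc8-1 TTG1 followed MYBL2, and PAP1 and EGL3 overlapped behind it, ahead of MYB90 and TT8. MYBL2 held the first place in all 6 libraries.

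Next the enzymes that the complex is known to act on were counted, from a list of 11 late anthocyanin genes, of which 10 were tested and 3AT1 was not analysed here. In apc8-1, 7 of the 10 fell and none rose, where 16.1% of all tested loci were called lower. The median log2 fold change was -1.03 against 0.01 over all tested loci. DFR (dihydroflavonol reductase, the first late step) changed by -2.33, TT19 (a glutathione transferase that carries anthocyanin to the vacuole) by -2.003, LDOX (anthocyanidin synthase) by -1.57 and UGT75C1 (anthocyanin glucosylation) by -1.28, with adjusted p from 3.34e-06 to 5.68e-04. UGT79B1, BGLU10 and UGT78D2 completed the 7, and 6 of the 7 were called without any 1 library, the exception being UGT78D2.

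The nrpe1-12 libraries showed the reverse for part of this list, while MYB90 was lower there. Here 4 of 10 late genes rose and none fell, with a median of 0.31 against -0.01 over all tested loci, and 13.5% of all tested loci were called higher. DFR had 10.9 and 10.1 FPKM in Col-0, 1.33 and 1.24 FPKM in apc8-1, and 20.8 and 21.3 FPKM in nrpe1-12 (log2 fold change 0.94 in nrpe1-12, SE 0.10, adjusted p = 3.43e-04). SCPL10, an acyltransferase that adds sinapoyl groups to anthocyanin, rose by 1.01 (adjusted p = 0.00164), from 3.54 and 2.66 to 7.58 and 6.82 FPKM. LDOX rose by 0.53 (adjusted p = 0.0220) and 3AT2, a coumaroyltransferase, by 0.57 (adjusted p = 0.0249). Without Col-0 replicate 1, without Col-0 replicate 2, without nrpe1-12 library b, or with no filter, the calls of LDOX and 3AT2 were lost. Those of DFR and SCPL10 held in every alternative run. With organelle transcripts left out, 4 were called higher and UGT75C1 lower.

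Set directly against nrpe1-12, all 10 tested late genes were lower in apc8-1, where 11.4% of all tested loci were called lower. Their median was -1.02 against 0.00 over all tested loci. DFR was lower by 3.27 on the log2 scale (adjusted p = 1.57e-06), TT19 by 2.11 and BGLU10, an anthocyanin glucosyltransferase, by 0.63. LDOX had 1.16 and 0.951 FPKM in apc8-1 against 7.06 and 8.62 FPKM in nrpe1-12 (adjusted p = 5.35e-05). Without any 1 library 7 to 10 were called, and with no filter 4. Summed over the list, the level was 77.2 and 73.6 FPKM in Col-0, 39.9 and 38.4 FPKM in apc8-1, and 98.9 and 98.1 FPKM in nrpe1-12.

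The early flavonoid enzymes, which also feed flavonols, gave 2 of 5 tested genes lower in apc8-1 against Col-0, where 16.1% of all tested loci were lower, and 2 of 5 higher in nrpe1-12, where 13.5% were higher. CHS (chalcone synthase, the entry step) had 14.0 and 12.9 FPKM in Col-0, 3.96 and 4.55 FPKM in apc8-1, and 24.5 and 22.3 FPKM in nrpe1-12. Its level fell in apc8-1 (log2 fold change -1.46, SE 0.10, adjusted p = 3.86e-05) and rose in nrpe1-12 (0.75, SE 0.10, adjusted p = 0.00117). CHI (chalcone isomerase) changed by -0.57 in apc8-1 (adjusted p = 0.0304), a call lost without Col-0 replicate 1 and without apc8-1 replicate 1. F3H (flavanone hydroxylase) rose by 1.08 in nrpe1-12 (adjusted p = 6.70e-04) and had a log2 fold change of -0.16 in apc8-1 (adjusted p = 0.407). Between the mutants 4 of 5 were lower in apc8-1, where 11.4% of all tested loci were lower. These were CHS, F3H, CHIL, a chalcone isomerase-like protein gene (-0.52, adjusted p = 0.00711), and CHI, whose call was lost under 3 of the 6 omissions of 1 library.

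In the flavonol branch, 2 of 4 tested genes fell in apc8-1, beside the 16.1% over all tested loci. None was called in nrpe1-12, where 26.3% of all tested loci were called. The 2 that fell in apc8-1 were the glycosyltransferases UGT78D1 (-0.84, adjusted p = 0.00749) and UGT89C1 (-0.55, adjusted p = 0.0312), and neither call held under every omission of 1 library. Both, and the flavonol synthase gene FLS1 (-0.48, adjusted p = 0.0428), were called lower in apc8-1 than in nrpe1-12, again not under every omission. Between the mutants 11.4% of all tested loci were lower in apc8-1. The flavonol regulators MYB11 and MYB12 stayed under 1 FPKM, and MYB111 did not pass the test.

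**Figure D4:**
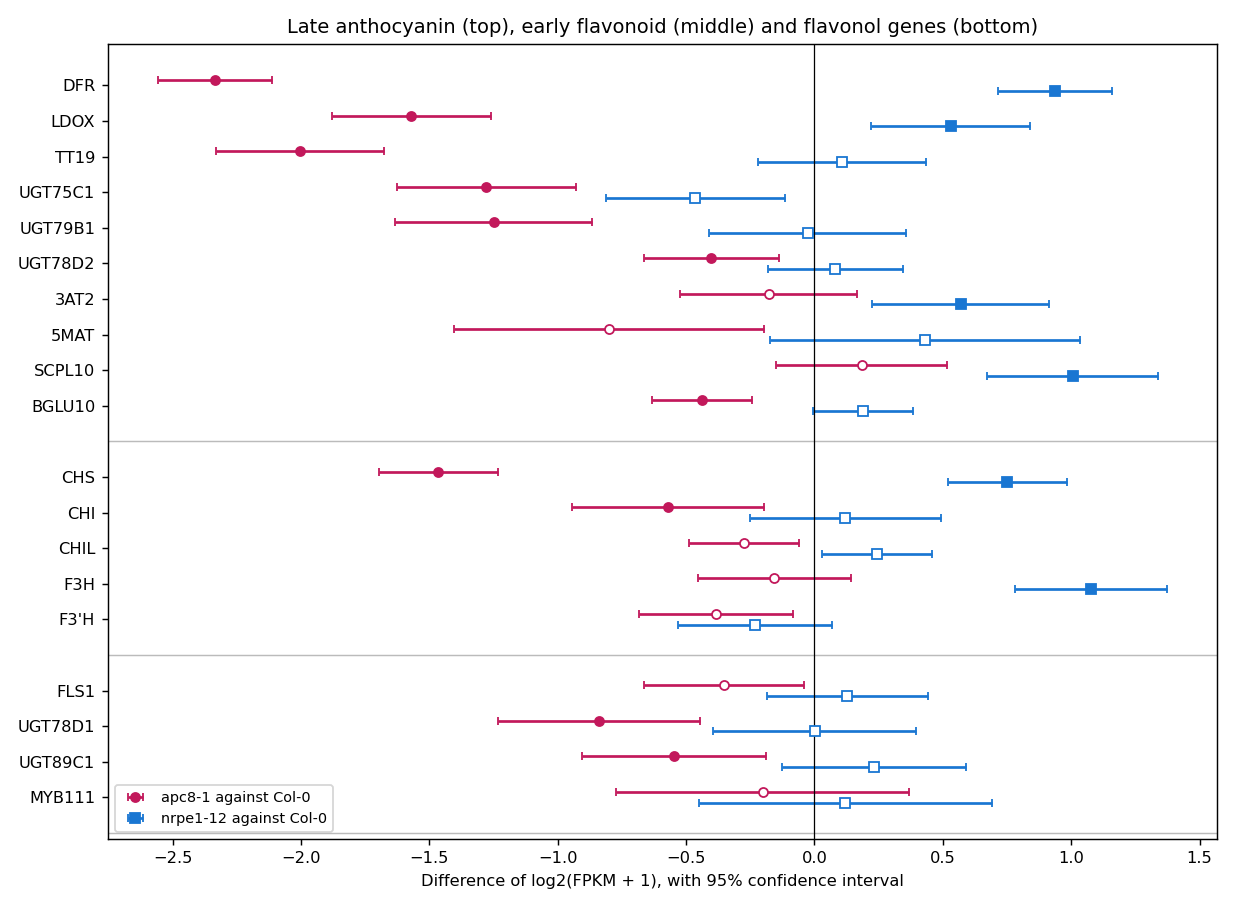
Log2 fold changes against Col-0 with 95% confidence intervals (horizontal axis, difference of log2(FPKM + 1)) for tested late anthocyanin, early flavonoid and flavonol genes, in apc8-1 (circles) and nrpe1-12 (squares), filled at an adjusted p below 0.05. DFR lies at -2.33 and 0.94, and CHS at -1.46 and 0.75, in apc8-1 and nrpe1-12.

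Among 8 other genes whose products repress anthocyanin synthesis, 3 rose and 2 fell in apc8-1, and 5 rose and 1 fell in nrpe1-12. Over all tested loci 14.1% were higher and 16.1% lower in apc8-1, and 13.5% and 12.8% in nrpe1-12. The LBD genes, nitrate-induced repressors, were the 3 that rose in apc8-1, and they rose in nrpe1-12 too. LBD39 had 8.36 and 5.27 FPKM in Col-0, 29.8 and 28.1 FPKM in apc8-1, and 22.5 and 19.2 FPKM in nrpe1-12. The log2 rise was 1.97 in apc8-1 (adjusted p = 1.29e-04), and 1.51 in nrpe1-12 (adjusted p = 5.50e-04), each with an SE of 0.17. LBD38 rose by 1.42 and 0.50, and LBD37 by 0.87 and 0.95, in apc8-1 and nrpe1-12, where the call of LBD38 in nrpe1-12 was lost without Col-0 replicate 1. MYB4, a repressor of the phenylpropanoid pathway, fell by 0.75 in apc8-1 (adjusted p = 0.00110) and by 0.64 in nrpe1-12 (adjusted p = 0.00275).

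JAZ1, a jasmonate signalling repressor that binds MBW components, rose in nrpe1-12 (log2 fold change 0.56, adjusted p = 7.86e-04) and had a log2 fold change of -0.10 in apc8-1 (adjusted p = 0.331). Its level was lower in apc8-1 than in nrpe1-12 by 0.65 on the log2 scale (adjusted p = 5.87e-04). JAZ8 was called higher in nrpe1-12 (0.70, adjusted p = 0.0249), but it passed the filter only through its nrpe1-12 libraries, was not tested without either of them, and was no longer called when Col-0 replicate 1 or 2 was left out. NAC032 fell in apc8-1 (-0.61, adjusted p = 0.0175), a call lost under 3 of the 6 omissions. Between the mutants LBD38 was higher in apc8-1 (0.92, adjusted p = 6.35e-04), and NAC032 and JAZ8 were lower (-0.85 and -0.87, adjusted p = 0.00637 and 0.0140). For JAZ8 this direction was built in by the filter, and the call was lost without either apc8-1 library and with no filter. In that comparison 11.4% of all tested loci were lower and 7.26% higher. The R3 MYB inhibitors, which compete for the bHLH partner, gave no call among 4 tested in apc8-1. In nrpe1-12 they gave 1, ETC3, which was lower (-1.001, adjusted p = 0.0202), again not held under every omission. Over all tested loci 30.2% were called in apc8-1 and 26.3% in nrpe1-12.

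**Figure D5:**
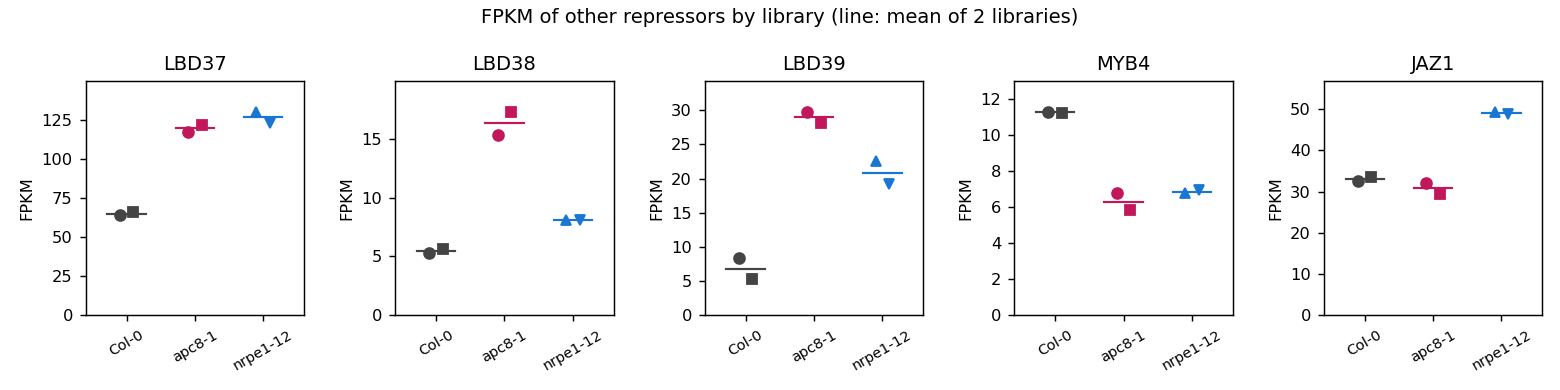
FPKM (vertical axes, linear, from 0) of 5 other repressor genes by library, with a line at the mean of 2 libraries. LBD39 lies at 8.36 and 5.27 in Col-0, above 28 in both apc8-1 libraries and at 22.5 and 19.2 in nrpe1-12, and MYB4 is lower in both mutants.

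Regulators upstream of PAP1 and modifiers of the regulator proteins were counted next. Of 5 upstream genes, 2 were higher in apc8-1, and 2 higher and 1 lower in nrpe1-12, and of 8 modifiers 1 and 3 were higher. Over all tested loci 14.1% were higher in apc8-1, and 13.5% higher and 12.8% lower in nrpe1-12. HYH, a light-response bZIP gene, rose by 0.94 in nrpe1-12 (adjusted p = 3.83e-04), from 11.5 and 10.95 to 21.6 and 23.1 FPKM. HY5, its partner, was called in neither mutant (-0.39 in apc8-1, adjusted p = 0.0911, and -0.02 in nrpe1-12, adjusted p = 0.928). The phosphate regulator PHR1 was called in no comparison of the main fit. In apc8-1 it lay near the threshold (0.29, adjusted p = 0.0509, limma) and passed it with a filter of 5 FPKM and with the replicate block. The calls of HYH and the photoreceptor gene CRY1 in apc8-1 (0.33 and 0.27), and of CRY1 and PIF3 in nrpe1-12 (0.35 and -0.37), did not hold under every omission of 1 library. COP1, whose product targets PAP1 and MYB90 for degradation with the SPA proteins, was called in no comparison. SPA3 rose by 0.49 in nrpe1-12 (adjusted p = 0.00440), and SPA4 by 0.75 (adjusted p = 0.00699, not held under every omission). UPL3, whose product marks GL3 and EGL3 for degradation, rose by 0.30 in apc8-1 and 0.32 in nrpe1-12, and both calls were lost with organelle transcripts left out and without any 1 library of the genotypes compared. Between the mutants HYH was lower in apc8-1 (-0.61, adjusted p = 0.00446), and the calls of PIF3 (0.35), SPA3 (-0.46) and SPA4 (-0.68) did not hold under every omission. In that comparison 11.4% of all tested loci were lower and 7.26% higher.

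Other programmes that use the same bHLH and WD40 proteins were compared too. Of 5 tested epidermal genes, 1 was called higher in apc8-1 against Col-0, where 14.1% of all tested loci were higher. This was GL1, the trichome MYB, higher by 0.85 (adjusted p = 0.0107), with 0.227 and 0.457 FPKM in Col-0 and 1.49 and 1.34 FPKM in apc8-1. GL1 passed the filter only with its apc8-1 libraries, and its call was lost without Col-0 replicate 1 and without apc8-1 replicate 1. No epidermal gene was called in nrpe1-12 against Col-0, where 26.3% of all tested loci were called. MYB23, a trichome MYB, was lower in apc8-1 than in nrpe1-12 (-0.64, adjusted p = 0.0410), a call lost under most omissions of 1 library. Between the mutants 11.4% of all tested loci were lower in apc8-1. GL2, a target of the trichome and root hair complex, had a log2 fold change of 0.20 in apc8-1 (adjusted p = 0.278) and 0.35 in nrpe1-12 (adjusted p = 0.0774). No seed coat tannin gene reached the filter, and BAN and TT1 were listed at 0 in all 6 libraries.

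Organ markers differed between genotypes in the same libraries. The 5 leaf markers, all photosynthesis genes, summed to 24147 and 23760 FPKM in Col-0, 32810 and 30837 FPKM in apc8-1, and 35151 and 33000 FPKM in nrpe1-12. All 5 were called higher in apc8-1 and nrpe1-12, namely RBCS1A (0.45 and 0.61), RCA (0.61 and 0.99), LHCB1.3 (0.40 and 0.32), LHCB2.1 (0.23 and 0.52) and PSBO1 (0.41 and 0.35). Over all tested loci 14.1% were higher in apc8-1 and 13.5% in nrpe1-12. The calls of RBCS1A, LHCB1.3 and LHCB2.1 in apc8-1, and of LHCB1.3 and PSBO1 in nrpe1-12, did not hold under every omission of 1 library. With quantile normalization 1 of 5 was called in each mutant, and LHCB1.3 turned negative in both mutants and LHCB2.1 in apc8-1. That setting gives equal ranks the same value, so it can hide a change of genes as abundant as these. The 6 root markers summed to 700 and 678 FPKM in Col-0, 381 and 424 FPKM in apc8-1, and 496 and 543 FPKM in nrpe1-12. PYK10 made up most of each sum, with 683 and 659, 373 and 415, and 486 and 529 FPKM. Of the 4 root markers tested, NRT2.1, PYK10 and CASP1 were lower and SCR higher in both mutants. Over all tested loci 16.1% were lower in apc8-1 and 12.8% in nrpe1-12. CASP1 passed the filter only through Col-0, and the calls of CASP1 and SCR were lost under some omissions of 1 library. The root hair gene EXPA7 and the root marker COBL9 stayed under 1 FPKM and were not tested. EXPA7 had 0.583 and 0.778 FPKM in Col-0, 0 in both apc8-1 libraries, and 0 and 0.267 FPKM in nrpe1-12. COBL9 had 0.624 and 0.722 FPKM in Col-0, 0.0325 and 0.0953 FPKM in apc8-1, and 0 and 0.0372 FPKM in nrpe1-12. Between the mutants NRT2.1 and PYK10 (-2.13 and -0.36), RCA (-0.39) and LHCB2.1 (-0.29) were called lower in apc8-1, of which NRT2.1 held under every omission. In that comparison 11.4% of all tested loci were lower. The 3 seed storage markers summed to 0.0777 and 0 FPKM in Col-0, 1.46 and 1.91 FPKM in apc8-1, and 0.300 and 0.256 FPKM in nrpe1-12, highest in apc8-1, and none reached the filter. Chloroplast transcripts other than rbcL made up 24.1 and 24.4% of FPKM in Col-0 and 28.4 to 30.2% in the mutants. The part of organ proportions, of seed transcripts and of the chloroplast share in the values of the regulators was not tested, and in whole seedlings fewer cells of a type and less RNA per cell cannot be told apart.

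Loci with the most similar profile were sought by the root mean square distance between centred log2(FPKM + 1) values over the 6 libraries, among 17253 annotated tested loci other than the members. The nearest to PAP1 were AT2G41850 (PGAZAT, a polygalacturonase, distance 0.138), AT1G05680 (UGT74E2, a glucosyltransferase, 0.142) and AT4G11650 (OSM34, an osmotin-like protein, 0.171). OSM34 had 56.4 and 64.0 FPKM in Col-0, 8.91 and 8.76 FPKM in apc8-1, and 68.3 and 65.9 FPKM in nrpe1-12. The nearest to MYB90 were AT3G02240 (RGF7, a signalling peptide gene, 0.323), AT3G46280 (0.351) and AT1G61800 (GPT2, a plastid glucose 6-phosphate transporter, 0.384). GPT2 had 19.5 and 19.5 FPKM in Col-0, 1.40 and 1.504 FPKM in apc8-1, and 5.37 and 4.59 FPKM in nrpe1-12. Its order is that of MYB90 because it was chosen by nearness to MYB90.

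For TT8 the nearest were AT5G59050 (0.0717), ZIFL1 (AT5G13750, a membrane transporter gene, 0.0755) and XND1 (AT5G64530, a NAC factor gene, 0.0800), and MYB114 ranked 7 by the same distance (0.102). In FPKM the apc8-1 mean was 3.35-fold below Col-0 for TT8 and 21.4-fold for MYB114, the latter on few fragments. The log2(FPKM + 1) scale narrows that gap. For MYBL2 they were GH9C2 (AT1G64390, an endoglucanase gene, 0.0108), AT1G56145 (0.0248) and AT5G02230 (0.0281). Among the members, MYB90 ranked 797 from PAP1 (distance 0.906), behind MYB114 (470) and TT8 (489), with 17259 loci including members ranked. Seen from MYB90, PAP1 ranked 133 at the same distance and was the nearest member. These distances describe 6 libraries and favour genes of like amplitude.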

How the data were processed

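The deposited table gives FPKM per locus and library, and a second sheet lists each locus with its structure and class code (a label of the match to the annotation, deposited by the authors with no score). Per the submitters' processing notes, TopHat2 2.0.13, Cufflinks 2.2.1, Cuffnorm 2.2.1 and TAIR10 were used, with no role or order stated. No source used here states the strand of counting. The pair of nrpe1-12 columns has a single name, and their libraries were lettered a and b by table order. Coordinates are from the deposited table, 1-based. Gene names came from a RefSeq table, and all 88 listed genes matched by identifier.

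FPKM values were transformed to log2(FPKM + 1), and 17802 loci that reached 1 FPKM in 2 or more libraries were fitted with limma 3.58.1 in R 4.3.3 (lmFit and eBayes with an intensity trend) in 1 model of the 6 libraries. There were 3 residual degrees of freedom and 4.93 from the prior. Benjamini-Hochberg adjustment ran over all tested loci. The procedure was tested on simulated data. Fragment numbers were estimated from steps between low values of single-exon loci longer than 1500 bases, less an offset of 220 bases, and 98.3 to 99.5% of these lay within 0.15 of a whole number. Depth is therefore known only as an estimate, and fragment numbers cover counting error only. With 2 libraries against 2, the smallest p an exact permutation allows is 0.333.

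The members and the 13 other gene lists were chosen with earlier results of these data known. All members are named, and of each other list up to 4 called genes with the smallest p (all where the list has 6 or fewer). Genes named because a call was lost, and a few that passed no test, were chosen after their values were seen. Sequences are not analysed here. Alternatives were pseudocounts of 0.1 and 0.5, no filter and a filter of 5 FPKM, median-of-ratios scaling, quantile normalization, 288 organelle and ribosomal RNA loci left out with rescaling, eBayes without trend, a fit of 2 genotypes, a replicate block, and each library left out. Other tools were Python 3.11.15, pandas 2.3.3, numpy 2.4.6 and matplotlib 3.10.9.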

Additional observations from a re-analysis of the deposited data

How the results depend on the processing

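The number of regulators called in apc8-1 against Col-0 was 5, and 4 to 5 without any 1 library. A filter of 5 FPKM left 4 regulators tested and 3 called. With the replicate block it was 5. The deviations of Col-0 and apc8-1 libraries with the same number had r = -0.0585 over tested loci. With 2 pairs this cannot tell whether the numbers pair the libraries. For comparisons with nrpe1-12 no paired analysis was possible, because its columns share a single name. In nrpe1-12 against Col-0, 2 regulators were called, also without any 1 library, and 4 when organelle and rRNA loci were left out. In apc8-1 against nrpe1-12 it was 3, and 2 to 3 without any 1 library.

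Late anthocyanin genes called in nrpe1-12 against Col-0 numbered 4, but 2 with no filter and 2 to 5 without any 1 library. In apc8-1 against nrpe1-12 they numbered 10, but 4 with no filter and 7 to 10 without any 1 library. In apc8-1 against Col-0 they numbered 7, and 6 to 8 without any 1 library. The causes were not tested.

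Among the regulators, signs turned for differences that were not called and for no called one. With organelle and rRNA loci left out, the log2 fold change of TTG1 was -0.0505 in apc8-1 against Col-0, -0.0523 in nrpe1-12 against Col-0 and 0.0018 between the mutants, that of PAP1 was -0.0386 in nrpe1-12 against Col-0, and that of MYBL2 was 0.0088 between the mutants. With quantile normalization EGL3 was at 0.0606 in nrpe1-12 against Col-0, and TTG1 at 0.0048 between the mutants. Without any 1 library, EGL3 ranged from -0.0279 to 0.501 and TTG1 from -0.0239 to 0.0931 in apc8-1 against Col-0. In nrpe1-12 against Col-0, PAP1 ranged from -0.0227 to 0.173 and EGL3 from -0.0682 to 0.0405. Between the mutants, EGL3 ranged from -0.0140 to 0.514, TTG1 from -0.0817 to 0.0262 and MYBL2 from -0.0916 to 0.0474.

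Leaving out organelle genes moved the median of all loci to -0.07 in apc8-1 and -0.12 in nrpe1-12. Calls over all loci were then 1747 higher and 3698 lower in apc8-1 (2511 and 2873 as deposited) and 1701 and 3720 in nrpe1-12 (2406 and 2273). Calls over all loci numbered 5384 in apc8-1 against Col-0, 3252 without Col-0 replicate 1, 3348 without replicate 2 and 3277 with no filter. In nrpe1-12 against Col-0 they numbered 4679, with 2710 and 2787 without those replicates and 2588 with no filter. In apc8-1 against nrpe1-12 they numbered 3327, with 2042 without nrpe1-12 library a, 1822 without library b and 1462 with no filter. A sum over isoforms was not run, since the second sheet was found to hold no FPKM.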
